A study of Mus musculus with 2 samples.

Results

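Toll-like receptors are the membrane sensors through which macrophages recognise microbes. The 10 genes described here are Tlr1, Tlr2, Tlr3, Tlr4, Tlr5, Tlr6, Tlr7, Tlr8, Tlr9 and Tlr13. They were chosen by name, with earlier results of these data known, and all 10 were found among the 34714 genes of the deposited expression table. Mouse bone marrow-derived macrophages of strain C57BL/6 were sequenced in 2 libraries, 1 per group. The treated cells had been exposed for 24 h to the monoclonal antibody FGK45, which engages the receptor CD40, and the control cells to IgG. Both cultures had been grown from marrow in 20 ng/mL macrophage colony-stimulating factor, and no genetic change is named for either. The sources used here give neither the age and sex of the mice nor the antibody dose, and they leave unsaid whether both cultures came from 1 animal. With 1 library per group no difference has a replicate check and no test was possible.

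Toll-like receptors pair an ectodomain of leucine-rich repeats, which binds a microbial product, with a cytoplasmic TIR domain, which recruits the adaptors MyD88 or TRIF and so leads to NF-kB and interferon regulatory factors. TLR1, TLR2, TLR4, TLR5 and TLR6 act at the cell surface, where they meet lipoproteins, lipopolysaccharide and flagellin. TLR3, TLR7, TLR8, TLR9 and TLR13 act in endosomes and lysosomes, where they meet RNA or DNA. The endosomal receptors need the escort protein UNC93B1 and are cut by resident proteases before they can signal. CD40 belongs to the tumour necrosis factor receptor family and also signals to NF-kB.

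Levels are in FPKM, fragments scaled by transcript length and library size, so they can be compared between genes. About 6.16 gigabases of aligned sequence were estimated for the anti-CD40 library and 5.58 for the IgG library. The 9 receptors that reached 1 FPKM in at least 1 library rested on about 51 to 2793 fragments after anti-CD40 and 42 to 2927 after IgG. Intervals are at 95%, from these approximate fragment numbers, and they cover counting error only. All 10 macrophage markers examined were above 1 FPKM. Among them, the M-CSF receptor Csf1r had 333 FPKM in the anti-CD40 library and 333 in the IgG library. The lysozyme gene Lyz2 had 13423 and 11326. Of the 10, 8 were higher after anti-CD40, where 67.8% of all genes with at least 1 FPKM in either library were. Fcgr1 was lower after anti-CD40, at 27.1 FPKM against 30.3. Of the 8 B cell markers, 7 were below 1 FPKM in both libraries, and the exception, Blnk, stood at 62.6 and 63.7 FPKM. For plasmacytoid dendritic cells, which also carry TLR7 and TLR9, 5 of 7 markers were below 1 FPKM in both libraries. Their summed level was 4.43 FPKM after anti-CD40 and 6.97 after IgG, of which Tcf4 gave 1.93 and 4.32. Cox6a2 of that list had 1.45 and 2.49 FPKM, the defining marker Siglech 0.056 and 0.162, and Ccr9 0.017 after anti-CD40 and 0 after IgG. Ly6d went the other way from Tcf4, with 0.976 FPKM after anti-CD40 and 0 after IgG, and Klk1 and Pacsin1 were at 0 in both libraries. Of the 7 markers of conventional dendritic cells, 6 were below 1 FPKM in both libraries, and the exception, Batf3, had 8.88 FPKM after anti-CD40 and 14.1 after IgG. Of the 9 neutrophil, 8 T and NK cell and 9 stromal and epithelial markers, 8, 7 and 9 were below 1 FPKM in both libraries. Their sums were 2.60, 4.55 and 1.39 FPKM after anti-CD40 and 1.59, 3.72 and 0.651 after IgG. The exceptions were the neutrophil marker S100a8, at 1.82 and 1.11 FPKM, and the T cell marker Cd4, at 3.94 and 3.04 FPKM. Among the stromal and epithelial markers, Col1a1 had 0.406 FPKM after anti-CD40 and 0.032 after IgG, on about 49 and 4 fragments. Krt18 and Col3a1 went the other way, at 0.030 and 0.023 FPKM after anti-CD40 and 0.078 and 0.033 after IgG. The part of these cells in the receptor values was not tested, and in bulk RNA a change in the number of cells and a change in RNA per cell cannot be told apart.

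Tlr2 and Tlr13 were the most abundant receptors, and they changed places between the libraries. Tlr2, whose product recognises bacterial lipoproteins, was first after anti-CD40 and second after IgG. Tlr13, whose product recognises bacterial ribosomal RNA in mice, was second after anti-CD40 and first after IgG. The ranks of the other 8 were the same in both libraries, in the order Tlr7, Tlr1, Tlr8, Tlr4, Tlr6, Tlr9, Tlr3 and Tlr5. With anti-CD40, Tlr6 and Tlr9 were the neighbours in this order whose counting intervals overlapped. With IgG, the overlapping neighbours were Tlr4 with Tlr6 and Tlr9 with Tlr3. Among the 9591 genes that reached 1 FPKM in at least 1 library, Tlr2 exceeded 84.8% in level after anti-CD40 and 78.0% after IgG, whereas Tlr3 exceeded 1.99% and 2.63%.

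**Figure D1:**
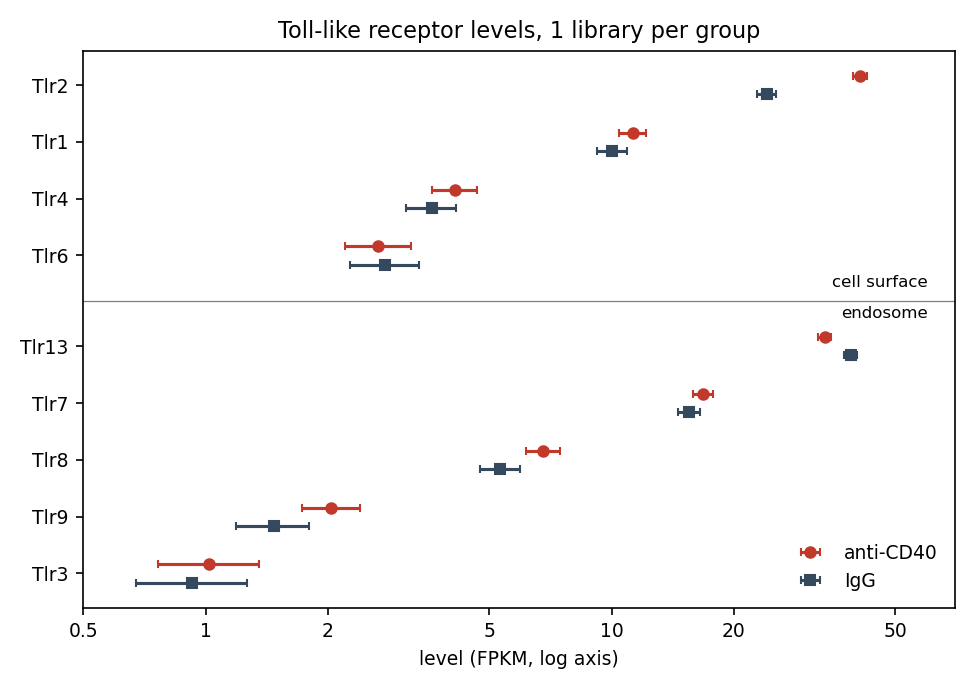
Levels of 9 Toll-like receptor genes in FPKM on a log axis, anti-CD40 as red circles above IgG as dark squares. Bars are 95% counting intervals from approximate fragment numbers, with 1 library per group, and Tlr5, listed at 0 after IgG, is left out. Tlr2 and Tlr13 lie highest, and their order differs between the libraries.

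Differences between the libraries were small for most of these genes. On the log2(FPKM + 1) scale, 0 of the 9 receptors at 1 FPKM or more were at least 2-fold apart, where 0.563% of all 9591 genes were (0.25% higher and 0.313% lower). At 1.5-fold, 1 of the 9 was apart, Tlr2, which was higher after anti-CD40, where 4.83% of all genes were apart, 2.68% higher and 2.15% lower. That split of all genes, 257 higher and 206 lower, turns with the scaling: it was 122 and 401 after centring on the median and 333 and 158 with equal sums, while Tlr2 was the 1 receptor apart under each. Over the 9101 genes that reached 1 FPKM in each of the 2 libraries, values were shifted toward anti-CD40 by a median log2 ratio of 0.12. The log2 ratio of each of the 9 receptors is therefore given both as measured and against that shift. The median ratio of the FPKM values of those 9101 genes was 1.11. The counting interval of the fold lay wholly above that value for 1 receptor, Tlr2, and wholly below it for 1, Tlr13. For the other 7 the interval included it. The same count was not made over all genes, so these counts have no background beside them. Counting intervals are narrower for genes with more fragments, and Tlr2 and Tlr13 were the most abundant receptors. The log2 ratio was above 0 for 7 of the 9 receptors, against 67.8% of all genes, and above the shift for 5 of the 9, against 50.5% of all genes.

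Among the cell-surface receptors, Tlr2 (chromosome 3, 83836272 to 83841824, GRCm38) had 40.9 FPKM after anti-CD40 and 24.1 FPKM after IgG. That is 1.70-fold higher after anti-CD40, with an interval from 1.59 to 1.82. Its log2 ratio was 0.74, or 0.62 above the shift of all genes, and 96 of the 9591 genes had a higher one. The RefSeq window from 250 bases before to 50 bases after the Tlr2 start (GRCm38.p6, chr3:83841559-83841858, minus strand) is printed because Tlr2 was the receptor furthest above the shift. Capitals mark matches to the NF-kB motif.

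Tlr2: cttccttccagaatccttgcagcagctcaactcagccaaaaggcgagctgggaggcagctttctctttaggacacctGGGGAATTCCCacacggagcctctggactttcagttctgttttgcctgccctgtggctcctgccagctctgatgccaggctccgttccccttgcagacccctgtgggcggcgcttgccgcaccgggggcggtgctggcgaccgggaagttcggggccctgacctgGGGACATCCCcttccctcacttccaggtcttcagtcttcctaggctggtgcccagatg

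The window of Tlr2 held 3 matches to the NF-kB motif, of which 2 overlap each other around base 172 before the start and the remaining one begins 8 bases before it. Both strands were searched, and 8.46% of the 32851 promoter windows in the table hold at least 1 such match. Windows were found for 8 of the 10 receptors, 10 windows in all. The Tlr6 window (chr5:64959117-64959416, minus strand) held 2 overlapping matches to the interferon-stimulated response element. The Tlr3 window also held an NF-kB match, which begins 211 bases before its start. Bases are counted from the start that RefSeq's promoter table uses, which lies 216 bases inside the printed gene span for Tlr2, 695 inside it for Tlr3 and 11776 inside it for this window of Tlr6. A match is a description of the letters in the window and says nothing of binding.

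Tlr1 and Tlr6 encode the partners with which TLR2 forms heterodimers, TLR1 for triacylated and TLR6 for diacylated lipoproteins. Tlr1 (chromosome 5, 64924680 to 64933600) had 11.3 FPKM after anti-CD40 and 10.0 FPKM after IgG. The fold was 1.13, with an interval that began just above 1 and reached 1.26, and its log2 ratio of 0.16 lay 0.04 above the shift. Tlr6 (chromosome 5, 64953092 to 64970942) had 2.66 FPKM after anti-CD40 and 2.77 FPKM after IgG. The fold was 0.960, with an interval from 0.734 to 1.27. Neither partner showed a difference like that of Tlr2.

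Tlr1 and Tlr6 lie 19492 bases apart and are close copies of each other, so reads can be shared between them. Their longest common stretch in the coding sequence is 229 bases. It is printed from the GENCODE M21 transcripts with 20 bases on either side, because a read of 150 bases inside it cannot be assigned to 1 of the genes by its own letters, though its mate may lie outside. The stretches cover chr5:64925517-64925785 for Tlr1 and chr5:64953808-64954076 for Tlr6 (GRCm38, minus strand, exonic and coding), and capitals mark the run that is identical in both.

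Tlr1: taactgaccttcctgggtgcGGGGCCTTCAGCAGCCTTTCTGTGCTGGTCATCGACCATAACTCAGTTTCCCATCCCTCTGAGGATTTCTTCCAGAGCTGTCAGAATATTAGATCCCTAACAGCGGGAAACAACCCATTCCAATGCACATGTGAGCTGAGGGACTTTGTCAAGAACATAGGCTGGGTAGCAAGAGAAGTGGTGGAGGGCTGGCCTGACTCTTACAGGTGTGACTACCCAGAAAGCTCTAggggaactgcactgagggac
Tlr6: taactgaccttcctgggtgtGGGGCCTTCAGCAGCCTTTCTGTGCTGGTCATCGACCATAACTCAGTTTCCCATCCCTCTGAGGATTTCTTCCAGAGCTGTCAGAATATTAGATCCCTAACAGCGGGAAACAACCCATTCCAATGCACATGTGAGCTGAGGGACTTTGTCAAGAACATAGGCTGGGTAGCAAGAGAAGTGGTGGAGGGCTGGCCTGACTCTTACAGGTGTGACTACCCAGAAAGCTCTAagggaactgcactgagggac

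Of all words of 150 bases in the transcripts, Tlr1 shares 4.83% of its own with Tlr6, and Tlr6 shares 3.94% of its own with Tlr1. At 50 bases the shares are 15.3% and 12.5%, and no other pair of the 10 receptors shares a word of that length. The sum of both genes was 13.9 FPKM after anti-CD40 and 12.8 FPKM after IgG, or 1.09-fold. Tlr6 also spans part of Fam114a1, but the annotated exons share 0 bases.

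TLR4 senses lipopolysaccharide with the co-receptor MD-2. Tlr4 (chromosome 4, 66827551 to 66846581) had 4.12 FPKM after anti-CD40 and 3.61 FPKM after IgG. Its fold of 1.14 had an interval from 0.944 to 1.38, which includes both 1 and the median of all genes. The log2 ratio of Tlr4 was 0.15, or 0.03 above the shift. Tlr5 (chromosome 1, 182954752 to 182976044), the gene of the flagellin receptor, stood at 0.0071 FPKM after anti-CD40 and was listed at 0 after IgG. A count of 3 fragments would correspond to 0.0457 FPKM after anti-CD40 and 0.0505 after IgG, so Tlr5 was not detectable at this depth in either library, and no fold is given. Of the mouse receptors outside the chosen set, Tlr11 had 0.034 FPKM after anti-CD40 and was listed at 0 after IgG, and Tlr12 had 0.050 and 0.012 FPKM.

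Among the endosomal receptors, Tlr13 (chromosome X, 106143275 to 106160493) had 33.5 FPKM after anti-CD40 and 38.8 FPKM after IgG. The fold was 0.864, with an interval from 0.820 to 0.910. Its log2 ratio of -0.21 lay 0.32 under the shift of all genes (-0.32), and 1302 of the 9591 genes had a lower one. Tlr13 was the endosomal receptor furthest from the shift and is absent from the human genome. Its window (GRCm38.p6, chrX:106143025-106143324, plus strand) is printed beside that of Tlr2 as the other extreme, and it held none of the 4 motifs searched, so all letters are in lower case.

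Tlr13: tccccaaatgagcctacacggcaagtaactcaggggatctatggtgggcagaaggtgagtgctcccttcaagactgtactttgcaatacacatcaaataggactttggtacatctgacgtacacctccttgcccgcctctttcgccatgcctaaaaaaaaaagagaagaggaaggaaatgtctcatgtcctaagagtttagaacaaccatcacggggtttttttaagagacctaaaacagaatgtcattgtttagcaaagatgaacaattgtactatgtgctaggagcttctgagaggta

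The 4 motifs were the NF-kB motif, the AP-1 motif TGANTCA, the interferon-stimulated response element and the PU.1 motif GAGGAAGT. They occur in 8.46%, 7.81%, 3.44% and 3.20% of all windows. The lack of a match was not particular to Tlr13. The windows of Tlr5 and Tlr8 also held none, nor did those at chr5:64932650-64932949 for Tlr1 and chr5:64959999-64960298 for Tlr6. The other Tlr1 window, chr5:64933509-64933808, held a PU.1 match.

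TLR7 and TLR8 recognise RNA and its breakdown products, and their genes are neighbours on chromosome X, 39051 bases apart. Tlr7 (167303380 to 167330574) had 16.8 FPKM after anti-CD40 and 15.5 FPKM after IgG. Its fold of 1.08, with an interval from 0.994 to 1.18, was close to the median of all genes. The log2 ratio of Tlr7 was 0.11, or -0.012 against the shift. Tlr8 (167241123 to 167264329) had 6.78 FPKM after anti-CD40 and 5.32 FPKM after IgG. The fold was 1.27, with an interval from 1.10 to 1.48, and its log2 ratio of 0.30 lay 0.18 above the shift. Tlr7 thus had 2.47 times the level of Tlr8 after anti-CD40 and 2.92 times after IgG, and the intervals of these ratios, 2.21 to 2.76 and 2.57 to 3.32, overlap. The 3 receptors on chromosome X summed to 57.0 FPKM after anti-CD40 and 59.6 after IgG.

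TLR9 recognises DNA with unmethylated CpG, and TLR3 recognises double-stranded RNA and signals through TRIF alone. Tlr9 (chromosome 9, 106222598 to 106226876) had 2.04 FPKM after anti-CD40 and 1.48 FPKM after IgG. Its fold of 1.38 had the second highest value among the receptors, with an interval from 1.07 to 1.82. Its log2 ratio of 0.30 lay 0.18 above the shift. Tlr3 (chromosome 8, 45395665 to 45411075) was the least abundant of the 9, with 1.02 FPKM after anti-CD40 and 0.927 FPKM after IgG. Its fold of 1.10 had an interval from 0.716 to 1.69. The log2 ratio of Tlr3 was 0.07, or -0.05 against the shift. The window of Tlr9 (GRCm38.p6, chr9:106222348-106222647, plus strand) is shown because it was the only one of the 10 windows with a match to the AP-1 motif. Capitals mark that match, which begins 58 bases before the start, and a PU.1 match on the other strand after it.

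Tlr9: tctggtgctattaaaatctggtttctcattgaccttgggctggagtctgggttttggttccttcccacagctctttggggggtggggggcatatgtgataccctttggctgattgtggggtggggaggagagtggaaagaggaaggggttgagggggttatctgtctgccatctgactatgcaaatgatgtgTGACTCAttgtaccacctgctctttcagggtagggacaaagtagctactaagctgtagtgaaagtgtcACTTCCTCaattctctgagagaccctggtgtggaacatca

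**Figure D2:**
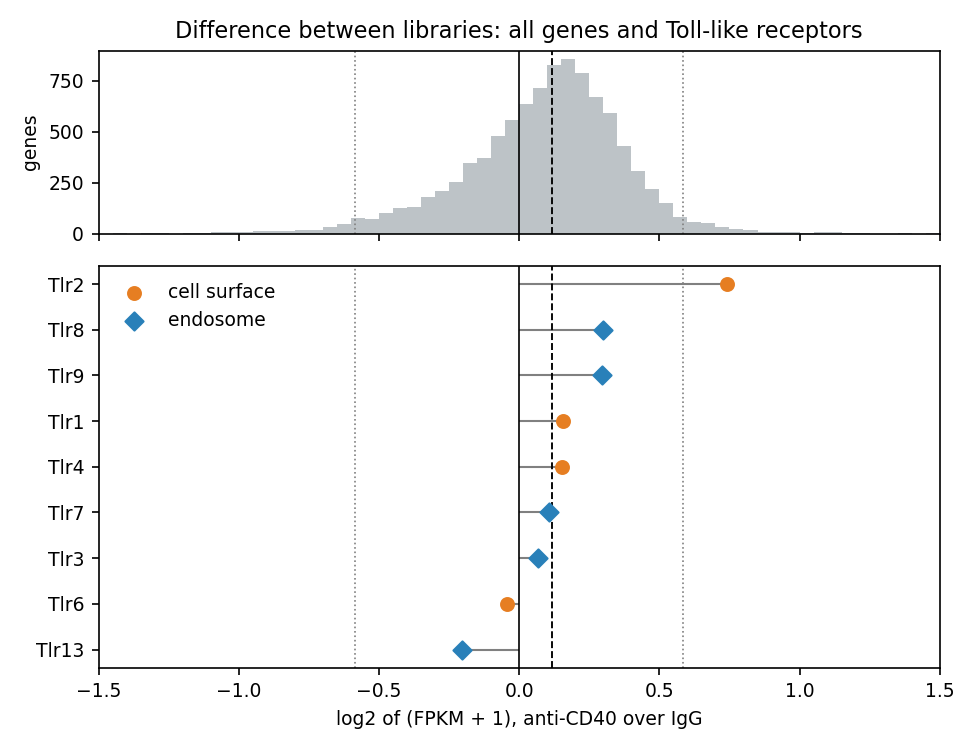
The upper panel counts genes by their log2 ratio of FPKM + 1, anti-CD40 over IgG, for genes at 1 FPKM or more in at least 1 library, and the lower panel gives the 9 receptors that passed. The dashed line is the median shift of 0.12 and dotted lines mark 1.5-fold. Tlr2 lies beyond the dotted line at 0.74, and Tlr13 lies lowest at -0.21.

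Cell-surface and endosomal receptors were compared next. The median log2 ratio was 0.15 over the 4 cell-surface receptors at 1 FPKM or more and 0.11 over the 5 endosomal ones, against 0.12 over all genes. Each group held 1 member with a log2 ratio under 0, Tlr6 on the surface and Tlr13 in the endosome. After upper-quartile scaling of the same 9 receptors the medians were 0.03 for the surface and -0.0058 for the endosome. Where Tlr3, which then falls under 1 FPKM, was left out, the endosomal median was 0.07. The order of the 2 medians then rested on that gene. As deposited, Tlr3 passed through the anti-CD40 library alone, at 1.02 FPKM against 0.927 after IgG. Without Tlr13, a choice made after seeing the data, the endosomal median as deposited was 0.20, above that of the surface. The order of the 2 medians is thus not stable to the loss of a single member.

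The summed levels differed more. The 5 cell-surface genes summed to 59.0 FPKM after anti-CD40 and 40.5 after IgG, a ratio of 1.46. The 5 endosomal genes summed to 60.1 FPKM after anti-CD40 and 62.0 after IgG, a ratio of 0.969. Cell-surface receptors therefore made up 49.5% of the summed level after anti-CD40 and 39.5% after IgG, a difference of 10.0 percentage points. Counting intervals of the shares ran from 48.4% to 50.6% after anti-CD40 and from 38.3% to 40.7% after IgG. That difference rested mainly on Tlr2 and in part on Tlr13. Without Tlr2 the surface share was 23.1% after anti-CD40 and 20.9% after IgG, 2.21 points apart. Without Tlr13 it was 68.9% after anti-CD40 and 63.6% after IgG, 5.37 points apart. Tlr2 alone made up 34.4% of the sum after anti-CD40 and 23.5% after IgG, and Tlr13 28.1% and 37.8%. A share of this kind does not depend on the scaling between libraries.

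**Figure D3:**
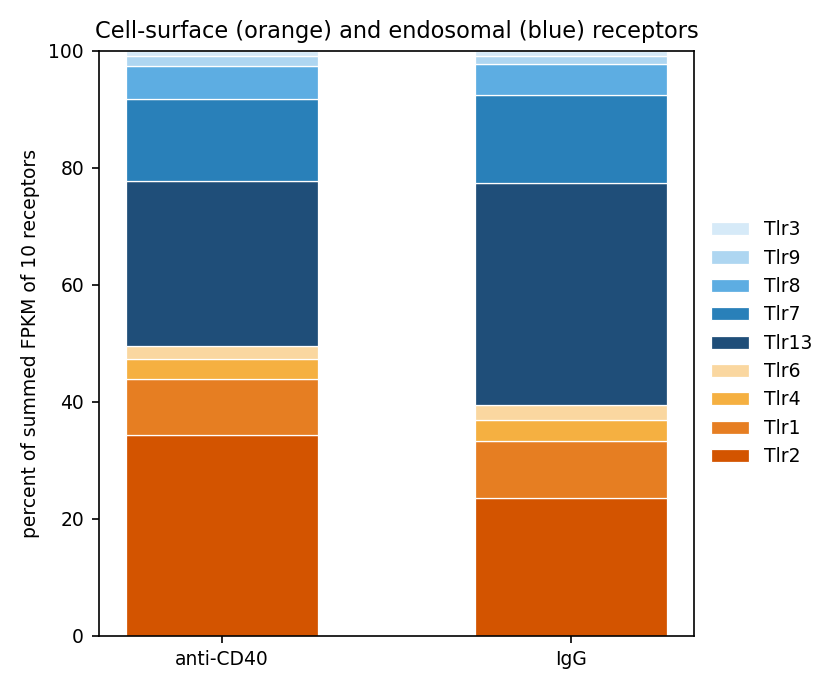
Stacked bars give each receptor's percent of the summed FPKM of the 10 receptors, anti-CD40 left of IgG, cell-surface receptors in orange and endosomal ones in blue (Tlr5 is too low to be seen). The orange part reaches 49.5% after anti-CD40 and 39.5% after IgG, and the widths of the Tlr2 and Tlr13 bands change most.

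Ratios between receptors of 1 library are also free of scaling. Tlr2 had 3.62 times the level of its partner Tlr1 after anti-CD40 and 2.41 times after IgG, with intervals from 3.33 to 3.95 and from 2.17 to 2.66. Against the partner Tlr6 the ratio was 15.4 after anti-CD40 and 8.70 after IgG, with intervals from 12.7 to 18.7 and from 7.14 to 10.7. Against Tlr4 it was 9.94 after anti-CD40 and 6.68 after IgG. In each of these the intervals of the 2 libraries do not overlap. All of them have Tlr2 as numerator, so they are not independent of each other. How often such intervals fail to overlap was not counted over other gene pairs. The ratio of Tlr1 to Tlr6 was 4.24 after anti-CD40 and 3.62 after IgG, and there the intervals, 3.46 to 5.21 and 2.94 to 4.50, overlap. Tlr7 had 8.22 times the level of Tlr9 after anti-CD40 and 10.5 times after IgG. Those intervals, 6.90 to 9.81 and 8.54 to 13.2, overlap as well. Tlr2 had 1.22 times the level of Tlr13 after anti-CD40 and 0.621 times after IgG, with intervals from 1.16 to 1.29 and from 0.582 to 0.663, on either side of 1. Tlr13 had 1.998 times the level of Tlr7 after anti-CD40 and 2.50 times after IgG, with intervals from 1.87 to 2.14 and from 2.33 to 2.69.

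The co-receptors and accessory proteins of the surface receptors were mixed. Of 9 such genes 7 reached 1 FPKM, with a median log2 ratio of 0.18, and 1 of the 7 was at least 1.5-fold higher after anti-CD40 (2.68% of all genes were). It was Ly86, which encodes MD-1, at 22.2 FPKM after anti-CD40 and 14.3 after IgG, whereas its partner receptor Cd180 had 37.6 and 40.5 FPKM. Cd14, which passes lipopolysaccharide to TLR4 and lipoproteins to TLR2, stood at 333 FPKM after anti-CD40 and 244 after IgG, 1.36-fold. Ly96, the gene of MD-2, had 12.4 FPKM after anti-CD40 and 12.6 after IgG. The scavenger receptor Cd36 had 32.3 and 29.9 FPKM, and the integrin chains Itgam and Itgb2 12.5 and 10.9 FPKM and 151 and 124 FPKM. Lbp was below 1 FPKM in both libraries, and Tril was listed at 0.

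In the lists for folding and transport of Toll-like receptors, endolysosomal proteases and nucleases, 0 genes that reached 1 FPKM were at least 1.5-fold apart. Of all genes, 4.83% were. The folding and transport list is not confined to endosomal receptors, as it also holds chaperones of surface receptors and solute carriers. Unc93b1, named for its role and outside the naming rule, had 492 FPKM after anti-CD40 and 461 after IgG, a fold of 1.07. Of 14 folding and transport genes 13 were measured, all at 1 FPKM or more, with a median log2 ratio of 0.10 and 0 at 1.5-fold. The 4 largest ratios either way were those of the chaperone Cnpy4 (0.47), Rab7b, a GTPase of late endosomes (-0.36), the adaptor complex subunit Ap3b1 (0.36) and the chaperone Hsp90b1 (0.25). The 7 genes of the protease list, of which Ifi30 encodes a thiol reductase and not a protease, had a median of 0.25. Of these, 7 of 7 were above 0 and 4 of 7 above the shift, where 67.8% and 50.5% of all genes were. Ctss and Ctsb, cathepsins of the endolysosome, had 2254 and 4240 FPKM after anti-CD40 against 1620 and 3559 after IgG. The log2 ratios of Ctsl, Ctsk, Ctsh, Ifi30 and Lgmn were 0.38, 0.27, 0.07, 0.10 and 0.02. Of 8 nuclease genes 6 reached 1 FPKM, with a median of 0.05. Pld3 and Pld4, exonucleases that trim DNA and RNA, had log2 ratios of 0.14 and -0.04, and the lysosomal Dnase2a had -0.29. Rnaset2a and Rnaset2b, near-identical copies whose reads can be shared, had 0.30 and 0.24, and Rnase6 had -0.20. Dnase1l3 was below 1 FPKM and Rnase2a was listed at 0.

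Of 10 genes for endogenous ligands, 5 reached 1 FPKM, with a median log2 ratio of 0.42. That median is the value of S100a8, which rests on about 18 fragments after anti-CD40 and 10 after IgG, with an interval of its fold from 0.713 to 3.95. Bgn passed through the anti-CD40 library alone, at 1.56 FPKM against 0.801 after IgG. The 5 were Hmgb1 (0.25), Hspd1 (0.49), Hsp90aa1 (-0.09), S100a8 (0.42) and the proteoglycan Bgn (0.51). S100a9, Vcan, Tnc, Fn1 and Camp were below 1 FPKM in both libraries. Of 18 adaptors and kinases next to the receptors, 16 reached 1 FPKM, with a median of 0.20. Of these 16, 0 were at least 1.5-fold apart, where 4.83% of all genes were. The largest ratios either way were those of the kinase Irak2 (0.38), the TAK1 partners Tab1 (-0.36) and Tab2 (0.34), and the ubiquitin ligase Traf3 (0.34). Among 12 inhibitors, 9 reached 1 FPKM, with a median of 0.24 and 3 at least 1.5-fold higher, where 2.68% of all genes were. That median is the value of Socs1, which passed through the anti-CD40 library alone, at 1.06 FPKM against 0.742 after IgG. Socs1 rests on about 62 and 39 fragments, with an interval of its fold from 0.949 to 2.21. The largest ratios among the inhibitors were those of Tnfaip3 (0.93), Dusp1 (0.82), Atf3 (0.60) and Zc3h12a (0.41). These act on ubiquitin, MAP kinases, transcription and transcript decay.

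The medians of the downstream genes of the MyD88 and TRIF branches lay on opposite sides of the shift, though each list held genes on both sides. These lists too were chosen with earlier results of these data known, so their medians are a description only. Of 15 MyD88 and NF-kB response genes, 10 reached 1 FPKM, with a median log2 ratio of 0.56. Of these 8 were above the shift, 5 were at least 1.5-fold higher and 0 at least 1.5-fold lower, where 2.68% and 2.15% of all genes were. The 2 below the shift were Nfkbiz (-0.46) and Icam1 (-0.01). The 4 largest ratios were those of Il1b (1.55), Cxcl1 (1.10), Cxcl2 (1.06) and Ier3 (0.70). Of 12 TRIF and interferon response genes, 11 were measured and 10 reached 1 FPKM, with a median of -0.19. Of these 2 were above the shift, Isg15 (0.34) and Rsad2 (0.16), 0 were at least 1.5-fold higher and 1 was at least 1.5-fold lower. The largest ratios either way were those of Irf7 (-0.66), Usp18 (-0.51), Oasl1 (-0.41) and Isg15. Of all genes, 50.5% were above the shift. Both kinds of gene are also targets of other receptors, among them CD40 itself and interferon receptors.

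**Figure D4:**
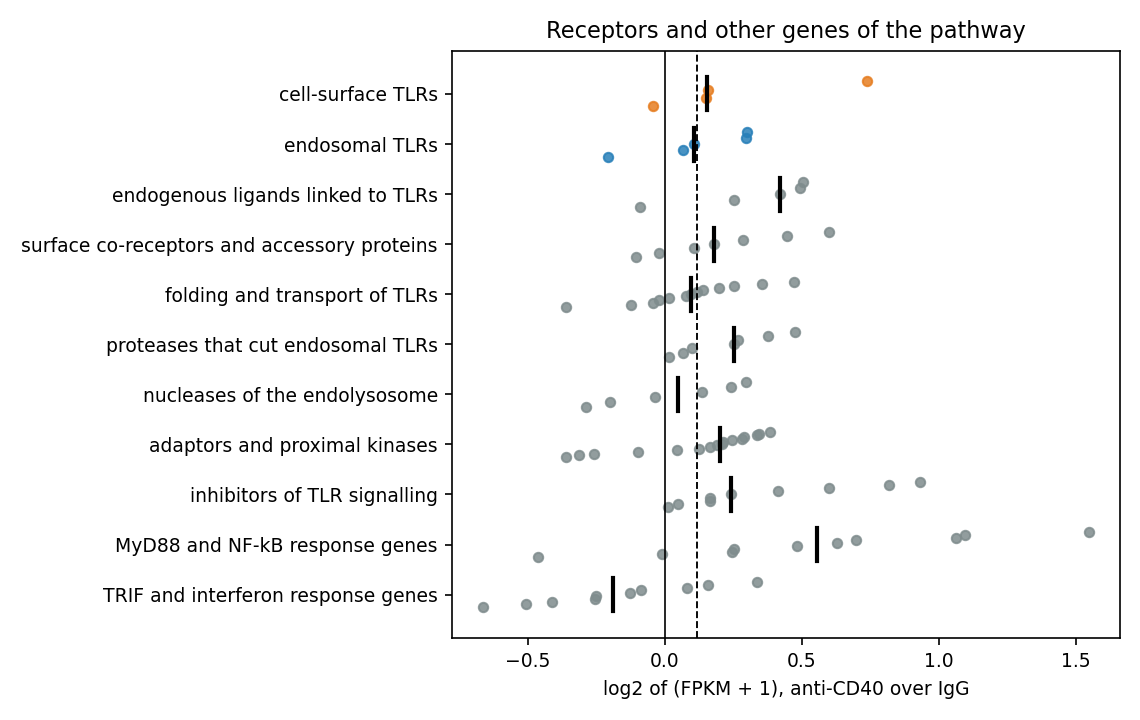
Each point is 1 gene at 1 FPKM or more in at least 1 library, placed by its log2 ratio of FPKM + 1, anti-CD40 over IgG, with black bars for list medians and a dashed line for the median shift of all genes at 0.12. The medians of the receptors (0.15 and 0.11) lie near the dashed line, that of MyD88 and NF-kB response genes (0.56) lies above it and that of TRIF and interferon response genes (-0.19) below.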

How the data were processed

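Per the labels' protocols, TRIzol was used for extraction and 1.3 ug of total RNA for TruSeq preparation. Per the submitters' processing notes, the tools were HISAT2 2.1.0 and StringTie, with build mm10; the sources used here name no annotation, strand setting or filter. Deposited by the authors was 1 value per gene and library, read as FPKM because the header names no unit and the column sums differ (529104 with anti-CD40, 547362 with IgG).

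Columns were assigned by name. Folds are ratios of FPKM; log2 ratios use FPKM + 1, which understates differences of low genes. Counts cover genes that reach 1 FPKM in at least 1 library. With 1 library per group no test was run. Depth came from the steps of low single-exon genes: FPKM times RefSeq length came out as whole steps (tolerance 0.05) for 74.1% of 58 genes (anti-CD40) and 86.4% of 44 (IgG). A step was read as 0.5 aligned base and a fragment as 300 bases. Fragments use median GENCODE M21 coding transcript lengths, and intervals are exact Poisson or conditional binomial; shares use a normal approximation. Absolute depths rest on that reading. Promoter windows are from RefSeq.

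Of each other pathway list of up to 10 genes all are named, and otherwise the 4 largest ratios either way. Cell type markers do not follow that rule and are named in part. Socs1, Nfkbiz, Icam1 and Rsad2 are named outside that rule, after their values were seen. No gene is named for a like pattern, since 2 libraries give none. Tasl and Mx1 were not matched and are not analysed here. The receptors and lists were chosen with earlier results of these data known. Python 3.11.15, numpy 2.4.6, pandas 2.3.3 and scipy 1.17.1 were used.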

Additional observations from a re-analysis of the deposited data

How the results depend on the processing

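Each receptor was recomputed with pseudocounts of 0.1 and 5, after centring all ratios, after rescaling to equal sums or upper quartiles, unfiltered, and with a filter at 5 FPKM. Under all of them 0 receptors were 2-fold apart and 1 was 1.5-fold apart; the 1.5-fold count was added after seeing the data. The log2 ratio of Tlr2 ran from 0.60 to 0.79 and that of Tlr13 from -0.35 to -0.16. Centring turned the endosomal median to -0.012, Tlr7 to -0.012, Tlr3 to -0.051 and Tlr5, undetected, to -0.11; upper-quartile scaling turned Tlr7 to -0.033 and Tlr3 to -0.0058. All of these are small ratios under the shift that these scalings remove. The filter at 5 FPKM put the cell-surface median at 0.45, since only Tlr1 and Tlr2 are left. The difference in surface share was 2.21 points without Tlr2 and 5.37 without Tlr13. Alternatives chosen after seeing the data, Tlr1 and Tlr6 summed, the surface median without Tlr2 and the endosomal median without Tlr13, gave 0.15, 0.15 and 0.20. Upper-quartile scaling with the receptors kept as deposited, also added then, gave 0.03 for the surface and turned the endosomal median to -0.0058. Over all genes, 257 were 1.5-fold higher and 206 lower as deposited, 122 and 401 after centring, 120 and 420 after upper-quartile scaling, 333 and 158 with equal sums, and 508 and 329 with a pseudocount of 0.1. Counting error limits Tlr3, Tlr6 and Tlr9 most, and Tlr5 is below detection. No replicate could be left out with 1 library per group. No paired analysis was possible because each group holds 1 library.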
